A study of Mus musculus with 6 samples.

Results

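The genes of the ATF4-CHOP integrated stress response were examined in RNA-seq counts of pancreatic islets from 6 male mice on a high fat diet. The set was a fixed list of 10 gene symbols, Atf4, Ddit3, Atf3, Trib3, Chac1, Asns, Sesn2, Ddit4, Ppp1r15a and Nupr1, and all 10 were found among the 11106 genes in the count table. All 10 passed the filter on low counts, which left 11080 genes, and each had whole counts in every library. Values are given as counts, as counts relative to the TMM-scaled library total (CPM), or as log2 fold changes of knockout over floxed islets.

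The endothelial knockout group was 3 mice of genotype Ern1 fl/fl with VE-cadherin-Cre-ERT2, numbered 11, 12 and 13 (knockout). They were set against 3 Ern1 fl/fl littermates without Cre, numbered 8, 18 and 19 (floxed). Ern1 encodes IRE1α, an endoplasmic reticulum (ER) stress sensor, and both groups received 2 mg of tamoxifen on each of 5 days when 4 weeks old. All 6 mice then ate a diet with 60% of its calories from fat for 16 weeks from an age of 8 weeks. The VE-cadherin promoter is active in endothelial cells, so the other islet cells of the knockout mice should keep Ern1. Ern1 by cell type was not measured, and the RNA came from whole islets. Ern1 stood at 41.9, 36.0 and 46.8 CPM (knockout 11, 12 and 13), against 30.1, 44.6 and 46.0 CPM (floxed 8, 18 and 19), so in whole islets it checks the genotype labels little.

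In the integrated stress response, kinases that sense ER stress, amino acid shortage, double-stranded RNA or haem shortage phosphorylate the initiation factor eIF2. General translation then falls while the mRNA of the transcription factor ATF4 is translated more, and ATF4 switches on further factors (CHOP, encoded by Ddit3, and ATF3), amino acid enzymes, and feedback genes such as Ppp1r15a. Beta cells, which make large amounts of proinsulin, are known for their dependence on this pathway, and its PERK branch runs beside the IRE1α branch of the unfolded protein response. Much of ATF4's control is translational, so mRNA levels of Atf4 itself show only a part of it.

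ATF4 and its partners bind a C/EBP-ATF response element (CARE), and a window from 250 bases before to 50 bases after the annotated start of each member was searched for its core. The core TGATGNAA lay, on either strand, in 5 of the 10 member windows and in 3.97% of all 32851 windows of the same length in the table. The version TGATGCAA, 1 form of that core, lay in 3 member windows and 0.895% of all windows. The cyclic AMP response element TGACGTCA lay in 1 and 1.79%, and the AP-1 site TGAGTCA in 1 and 5.2%. The 5 sequences below are shown because 4 belong to members whose level differed most between libraries and 1, Asns, to a member that varied little. They come from RefSeq (GRCm38.p6) and are printed 5′ to 3′ along the gene's own strand, with matches to these motifs in capitals.
Atf3, chr1:191183284-191183583, minus strand: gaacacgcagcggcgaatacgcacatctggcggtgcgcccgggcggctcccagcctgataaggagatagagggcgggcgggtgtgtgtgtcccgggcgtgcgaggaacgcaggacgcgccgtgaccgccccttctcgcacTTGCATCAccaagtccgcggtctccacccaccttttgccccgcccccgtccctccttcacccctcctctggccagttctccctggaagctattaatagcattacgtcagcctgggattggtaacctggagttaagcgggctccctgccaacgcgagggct
Chac1, chr2:119350992-119351291, plus strand: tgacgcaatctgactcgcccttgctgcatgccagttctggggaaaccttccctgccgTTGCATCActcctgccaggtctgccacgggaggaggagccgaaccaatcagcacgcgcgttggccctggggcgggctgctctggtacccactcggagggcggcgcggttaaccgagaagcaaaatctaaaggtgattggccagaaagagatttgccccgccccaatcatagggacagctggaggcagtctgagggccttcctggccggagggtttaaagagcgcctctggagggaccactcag
Ddit3, chr10:127290543-127290842, plus strand: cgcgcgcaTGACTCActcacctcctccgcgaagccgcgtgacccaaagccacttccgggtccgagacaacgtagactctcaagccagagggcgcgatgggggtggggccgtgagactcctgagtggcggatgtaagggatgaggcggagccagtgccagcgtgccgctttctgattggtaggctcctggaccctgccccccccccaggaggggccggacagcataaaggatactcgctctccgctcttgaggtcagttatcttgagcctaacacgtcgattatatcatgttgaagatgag
Ppp1r15a, chr7:45526219-45526518, minus strand: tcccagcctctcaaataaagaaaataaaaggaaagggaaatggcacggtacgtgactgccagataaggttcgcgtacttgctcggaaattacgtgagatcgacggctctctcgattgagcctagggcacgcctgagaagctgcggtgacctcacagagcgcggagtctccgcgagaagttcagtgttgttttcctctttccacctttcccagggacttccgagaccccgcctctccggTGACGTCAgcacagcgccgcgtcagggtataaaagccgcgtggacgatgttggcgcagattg
Asns, chr6:7693160-7693459, minus strand: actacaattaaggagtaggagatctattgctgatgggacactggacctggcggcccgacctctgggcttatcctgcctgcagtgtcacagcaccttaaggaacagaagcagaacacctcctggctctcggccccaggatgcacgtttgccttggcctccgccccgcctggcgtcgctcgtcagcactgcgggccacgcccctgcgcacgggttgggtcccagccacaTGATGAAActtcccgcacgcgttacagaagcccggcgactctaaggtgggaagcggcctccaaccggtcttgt

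The capitals are the CARE core in Atf3 and Chac1, which starts 110 and 193 bases before the gene start and reads TTGCATCA because it lies on the other strand. In Asns the core reads TGATGAAA and starts 23 bases before the start. Ppp1r15a holds the cyclic AMP response element 12 bases before its start, and Ddit3 an AP-1 site, on the other strand, 242 bases before its start. Nupr1 holds the same TTGCATCA as Atf3, also 110 bases before its start, and Trib3 holds TTACATCA beginning at base 15 after it. Atf4, Sesn2 and Ddit4 held none of these 4 motifs in this window. The letters describe the windows only, and binding was not measured.

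Total counts ran from 18470720 to 18957444 per library, and the TMM factors from 0.924 (knockout 11) to 1.11 (floxed 18). After this scaling 1 CPM stood for 17.3 to 20.8 counts. Floxed 8 stood apart from the other floxed libraries in these genes, and the values of each member are given with and without it. Because it was singled out for its high level in the same genes, leaving it out makes their fold changes larger and their spread smaller by construction. The values and adjusted p-values without it, for the members and for lists that vary with them, describe how far the comparison rests on this library and are not evidence of a difference between the genotypes. Among the 10 members floxed 8 was in every case above both floxed 18 and floxed 19, as it was in 46.0% of all tested genes. It lay above the range of the knockout libraries in 3 members, inside it in 3 and below it in 4. Floxed 8 also had the lowest Ern1 level of the 6 libraries, 30.1 CPM. In Ern1 the knockout libraries (36.0 to 46.8 CPM) overlapped floxed 18 and 19 (44.6 and 46.0 CPM), so it did not separate the genotypes. The endothelial markers of floxed 8 summed to 553 CPM, within the 513 to 559 CPM of the knockout libraries. The sums were 727 and 697 CPM in floxed 18 and 19. By mean log2 CPM of the same markers floxed 8, at 4.57, lay above the knockout libraries (4.43 to 4.52). Floxed 18 and 19 stood at 4.98 and 4.93. Whether the label of floxed 8 is right, or its islets were handled differently, was not tested.

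With all 6 libraries, 0 of the 10 members passed the edgeR quasi-likelihood test (Benjamini-Hochberg adjusted p below 0.05), against 0.406% of all tested genes, and 0 had an unadjusted p below 0.05, against 17.9%. DESeq2 and limma-voom also called 0 of them (5.09% and 0.406% of all tested genes were called), with 2 and 4 members at an unadjusted p below 0.05, beside 1782 and 2071 of all 11080 genes. Limma-voom with quality weights, which gives libraries that stand apart less weight, called 7 members higher (9.89% of all tested genes were). The members' median log2 fold change was 1.36 in that fit, near the 1.45 without floxed 8. Its calls therefore carry the limit given for leaving floxed 8 out. In the edgeR fit with all 6 libraries the log2 fold changes were positive in 9 of 10 (49.5% of all tested genes were). Their median was 0.67, beside a median of -0.00292 over all tested genes. In the fit without floxed 8, 6 of 10 members passed the threshold as higher in knockout islets (8.59% of all tested genes did) and 0 as lower (5.70% did), a count that restates how high floxed 8 was in them. The 6 were Atf4, Ddit3, Atf3, Trib3, Asns and Ppp1r15a. All 10 values were positive there (50.9% of all tested genes were), with a median of 1.45. Leaving out any single other library gave 0 members called, while 0% of all tested genes were called without knockout 11 or 13, 0.0722% without knockout 12, 0.162% without floxed 18 and 0.144% without floxed 19. In 4 members every knockout library was above every floxed library, which held for 14.1% of all tested genes, and in 9 every knockout library was above floxed 18 and floxed 19, which held for 25.6%.

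**Figure D1:**
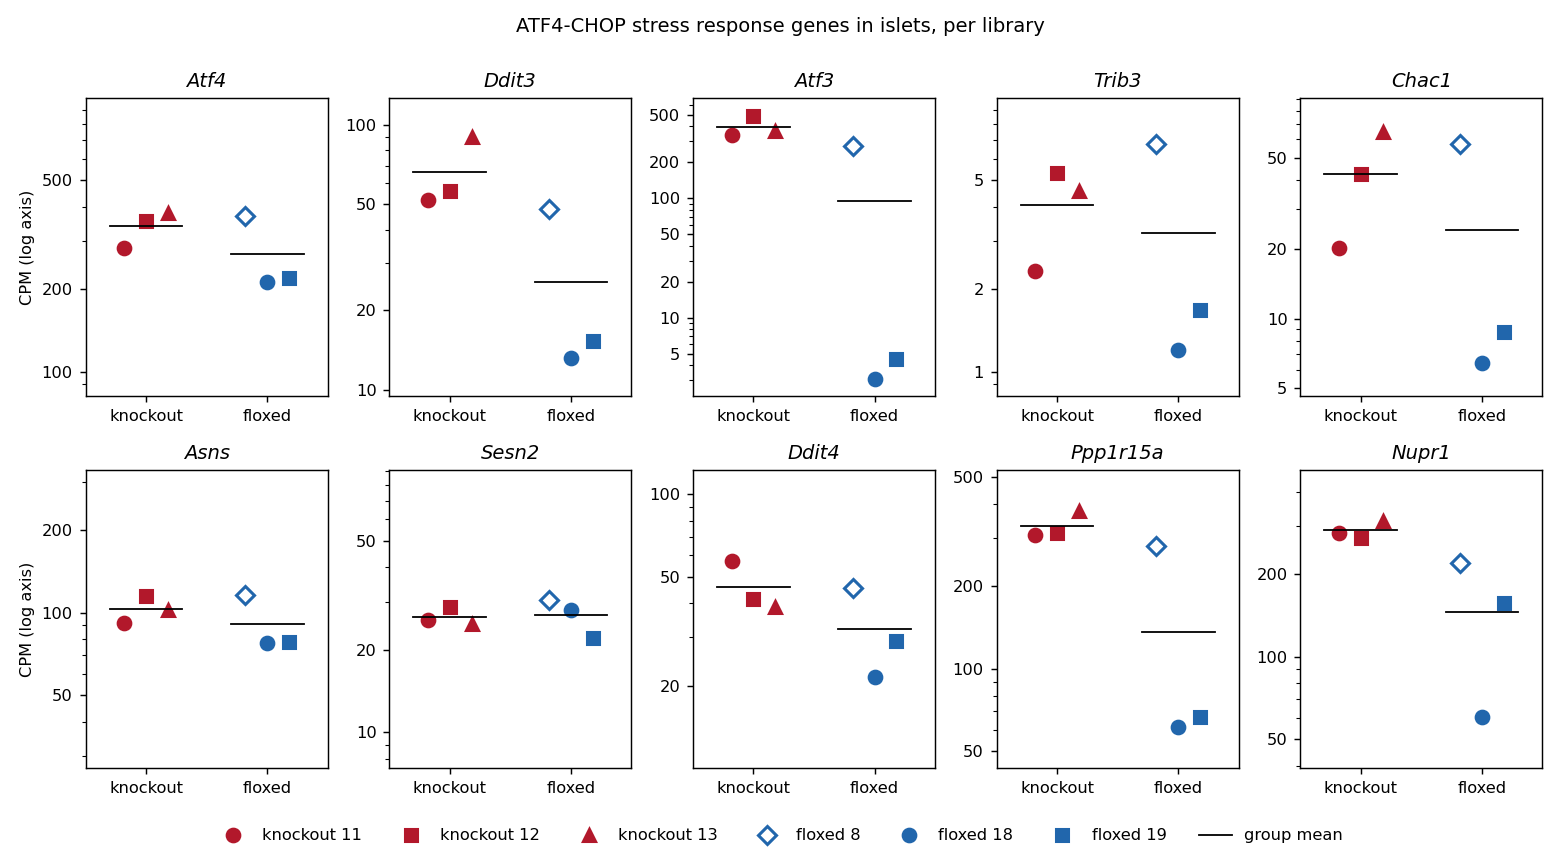
CPM of each member on a log axis, 1 panel per gene with its own range, for the 3 knockout libraries (red, left) and the 3 floxed libraries (blue, right), with the group mean as a line. Floxed 8 (open diamond) lies near the knockout libraries in every panel, and Atf3 spans 3.07 to 493 CPM while Sesn2 spans 22.2 to 30.4 CPM.

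Atf4, the transcription factor at the centre of the response, was the most evenly expressed of the factors. It stood at 284, 355 and 381 CPM (knockout 11, 12 and 13), against 372, 213 and 220 CPM (floxed 8, 18 and 19). Knockout 13 was highest and floxed 8 next, so the groups overlapped. With all libraries its log2 fold change was 0.34 (standard error, SE, 0.23, edgeR adjusted p = 0.480). Without floxed 8 the value of Atf4 was 0.64 (SE 0.13, edgeR adjusted p = 0.00768).

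Ddit3 encodes CHOP, the factor that links prolonged stress to cell death, and it varied more than Atf4. It stood at 51.9, 56.4 and 89.9 CPM (knockout 11, 12 and 13), against 47.9, 13.2 and 15.2 CPM (floxed 8, 18 and 19). The groups did not overlap, by a narrow margin between knockout 11 and floxed 8. Its log2 fold change was 1.38 with a 95% interval from -0.11 to 2.88 (edgeR adjusted p = 0.310). Without floxed 8 it was 2.21, with an interval from 1.32 to 3.10 and an edgeR adjusted p of 0.0236. Exons of the Mars gene on the opposite strand share 68 of the 1713 exon bases of Ddit3, those of Gm4189 share 13, and a second Ddit3 gene model on the same strand shares 105. The sources used here do not give whether counting used strand, and without strand the reads of such genes cannot be told apart.

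Atf3, a stress-induced repressor and activator of the same family and also an immediate early gene, had the widest range of the 10. It stood at 336, 493 and 368 CPM (knockout 11, 12 and 13), against 275, 3.07 and 4.48 CPM (floxed 8, 18 and 19). Floxed 8 was 72.8-fold above the mean of floxed 18 and 19, while the knockout mean was 1.45-fold above floxed 8. The groups did not overlap. In edgeR the log2 fold change over all 6 libraries was 2.09 (SE 1.82, edgeR adjusted p = 0.613). In limma-voom it was 4.78 on the same libraries (limma-voom adjusted p = 0.138), so its size depended on the method. Without floxed 8 the edgeR value was 6.72 with an interval from 6.09 to 7.35 and an edgeR adjusted p of 9.1e-06.

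Nupr1, a small chromatin protein first described in acute pancreatitis and induced by ATF4, was lowest in floxed 18. It stood at 284, 270 and 313 CPM (knockout 11, 12 and 13), against 219, 60.4 and 157 CPM (floxed 8, 18 and 19). The groups did not overlap, and floxed 18 and floxed 19 differed by a larger ratio in Nupr1 than in any other member. Knockout over floxed gave a log2 fold change of 0.99 with an interval from -0.14 to 2.13 (edgeR adjusted p = 0.335). It was 1.40 without floxed 8 and did not pass there either (interval -0.0259 to 2.84, edgeR adjusted p = 0.174).

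The feedback genes came next. Ppp1r15a encodes GADD34, which directs a phosphatase to eIF2 and so restores translation. It stood at 307, 312 and 377 CPM (knockout 11, 12 and 13), against 282, 61.5 and 66.7 CPM (floxed 8, 18 and 19), and the groups did not overlap. Floxed 8 was 4.39-fold above the mean of the other floxed libraries. The log2 fold change was 1.28 (SE 0.67, edgeR adjusted p = 0.402) with all libraries. Without floxed 8 it was 2.37 (SE 0.12, edgeR adjusted p = 2.0e-06). Tulp2, on the opposite strand, shares 12 of its 2937 exon bases.

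Trib3 encodes a pseudokinase that restrains ATF4, CHOP and AKT signalling, and it was the scarcest member. Its counts were 41, 105 and 82 in knockout 11, 12 and 13, against 117, 25 and 33 in floxed 8, 18 and 19. In CPM these were 2.34, 5.33 and 4.56 in knockout islets, against 6.77, 1.20 and 1.68 in floxed islets, so floxed 8 was the highest library of all and the groups overlapped. With all libraries its log2 fold change was 0.37 with an interval from -1.36 to 2.10 (edgeR adjusted p = 0.828). Without floxed 8 it was 1.50 with an interval from 0.68 to 2.33 and an edgeR adjusted p of 0.0260. Without floxed 18 the log2 fold change was -0.0319.

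Among the effectors, Chac1, which degrades glutathione, was the member with the widest spread after Atf3. It stood at 20.3, 42.3 and 64.7 CPM (knockout 11, 12 and 13), against 57.4, 6.43 and 8.76 CPM (floxed 8, 18 and 19). Floxed 8 lay inside the wide range of the knockout libraries, so the groups overlapped. Knockout over floxed gave a log2 fold change of 0.83 with all libraries (SE 0.97, edgeR adjusted p = 0.712). It was 2.48 without floxed 8 (SE 0.69, edgeR adjusted p = 0.126), and it did not pass in either.

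Asns, asparagine synthetase, is a classical ATF4 target and had the narrowest range after Sesn2. It stood at 91.7, 115 and 102 CPM (knockout 11, 12 and 13), against 116, 77.7 and 78.2 CPM (floxed 8, 18 and 19). Floxed 8 was the highest library, so the groups overlapped. The log2 fold change was 0.18 with an interval from -0.20 to 0.57 (edgeR adjusted p = 0.612). Without floxed 8 it was 0.40 with an SE of 0.10 and an edgeR adjusted p of 0.0249.

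Sesn2 and Ddit4 encode sestrin 2 and REDD1, stress proteins that hold back the growth kinase complex mTORC1. Sesn2 stood at 25.7, 28.7 and 24.8 CPM (knockout 11, 12 and 13), against 30.4, 27.9 and 22.2 CPM (floxed 8, 18 and 19). It had the narrowest range of the 10 members, and the knockout values lay inside the floxed range. Its log2 fold change was -0.0223 with an interval from -0.31 to 0.27 (edgeR adjusted p = 0.949), and 0.0686 without floxed 8 (interval -0.18 to 0.32, edgeR adjusted p = 0.741). Ddit4 stood at 57.1, 41.6 and 38.8 CPM (knockout 11, 12 and 13), against 45.6, 21.5 and 29.2 CPM (floxed 8, 18 and 19). Floxed 8 lay inside the knockout range, and the groups overlapped. The log2 fold change of Ddit4 was 0.52 (SE 0.30, edgeR adjusted p = 0.429), and 0.85 without floxed 8 (SE 0.23, edgeR adjusted p = 0.0717).

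**Figure D2:**
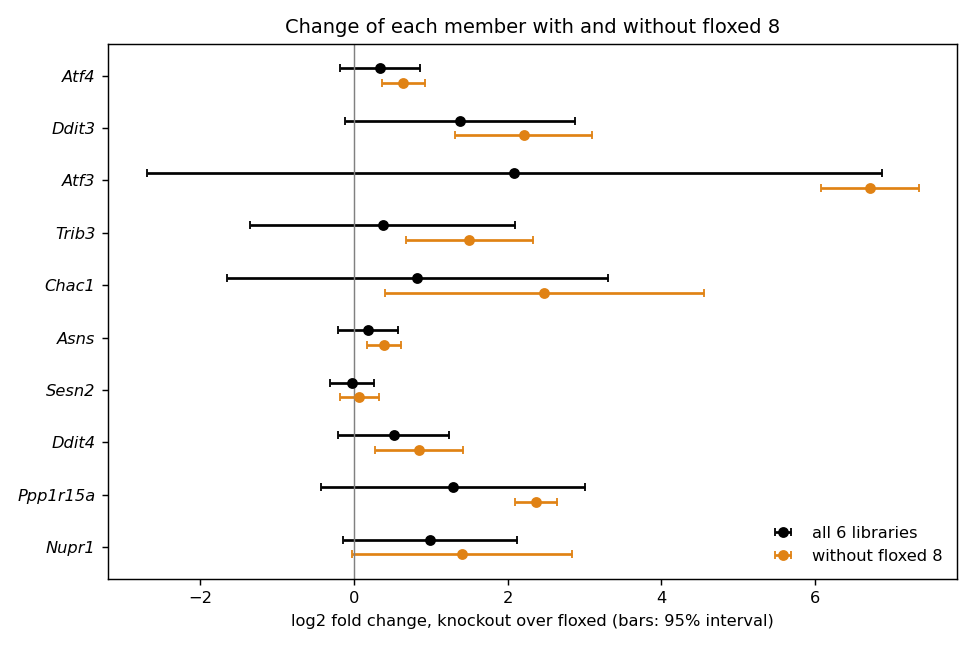
Log2 fold change of each member, knockout over floxed, with its 95% interval, from all 6 libraries (black) and without floxed 8 (orange). With all libraries every interval includes 0, and without floxed 8 the Atf3 value is 6.72 and the Sesn2 value 0.0686.

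Over the 18 alternatives run, the adjusted p of the 6 members called without floxed 8 ran from 0.00768 to 0.782 (Atf4), 0.00223 to 0.907 (Ddit3), 4.21e-09 to 0.796 (Atf3), 0.0260 to 0.989 (Trib3), 0.0249 to 0.881 (Asns) and 2.39e-07 to 0.859 (Ppp1r15a). Each low end came from a fit that left out floxed 8 or from limma-voom with quality weights, and carries the limit given for them. With all 6 libraries the smallest adjusted p of the 6 was 0.234 in DESeq2 and 0.111 in limma-voom without quality weights, both for Ddit3. Exact two-sided permutation tests of the log2 CPM of single members reached p = 0.10, their floor with 3 libraries a group, for Ddit3, Atf3, Ppp1r15a and Nupr1. For the other members the exact permutation p was 0.3 (Atf4, Chac1 and Ddit4), 0.4 (Asns), 0.5 (Trib3) and 1 (Sesn2). Over the 6 libraries the range of log2 CPM (prior count of 2) was 7.28 in Atf3, 3.31 in Chac1, 2.76 in Ddit3, 2.62 in Ppp1r15a, 2.39 in Trib3 and 2.37 in Nupr1. It was 1.40 in Ddit4, 0.84 in Atf4, 0.58 in Asns and 0.45 in Sesn2. The transcription factors other than Atf4 and the feedback genes thus spread over more than the amino acid enzyme Asns and the sestrin gene did. In a bulk sample fewer cells of a type and less RNA per cell cannot be told apart, and which islet cells held these mRNAs was not measured.

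Levels between genes were compared per kilobase of exon (GENCODE exons of the same build). The exons of all transcript models of a gene were pooled. In Nupr1 the pooled length, 2514 bases, exceeds the RefSeq gene span (chr7:126623246-126625470). In Atf4 the pooled length nearly fills the RefSeq span. The levels per kilobase of both may therefore be too low, which limits the order between genes. In knockout islets Atf3 averaged 185 ± 38.5 CPM per kilobase and Atf4 144 ± 21.3 (SD, n = 3), 2 neighbours whose SDs overlap. Nupr1 and Ppp1r15a followed at 115 ± 8.65 and 113 ± 13.3 CPM per kilobase, within each other's SD. Well below these stood Ddit3 at 38.6 ± 12.1, Asns at 37.7 ± 4.23, Ddit4 at 26.1 ± 5.62 and Chac1 at 25.9 ± 13.6 CPM per kilobase. Ddit3 and Asns differed by less than their SDs, as did Ddit4 and Chac1, while Asns and Ddit4 differed by more. Sesn2 at 7.60 ± 0.582 and Trib3 at 1.92 ± 0.730 CPM per kilobase were lowest. In floxed islets Atf4 was first at 114 ± 38.1 CPM per kilobase, then Nupr1 at 57.9 ± 31.8, Ppp1r15a at 46.5 ± 42.8 and Atf3 at 43.7 ± 72.7 (SD, n = 3). The SD of Atf3 there exceeds its mean because floxed 8 holds nearly all of it.

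The sensors and the eIF2 machinery upstream had small values in both directions. Of 15 genes listed for the eIF2 kinases, eIF2, its exchange factor eIF2B and the phosphatase, 0 passed the edgeR test with all libraries, 9 had positive values, and the median log2 fold change was 0.00494. Eif2ak3, the gene of the ER stress kinase PERK, stood at 72.2 ± 12.1 CPM across knockout and 52.4 ± 9.15 CPM across floxed islets (SD, n = 3 each), with a log2 fold change of 0.46 and an edgeR adjusted p of 0.183. The exchange factor subunit gene Eif2b4 had 17.3 ± 1.68 CPM across knockout and 20.8 ± 0.323 CPM across floxed islets (log2 fold change -0.26, edgeR adjusted p = 0.224), and the eIF2 subunit gene Eif2s3x a value of 0.11 (edgeR adjusted p = 0.556). Ppp1r15b, the constitutive partner of Ppp1r15a in the eIF2 phosphatase, stood out in this list at 55.8, 69.4 and 82.2 CPM (knockout 11, 12 and 13), against 45.6, 26.6 and 26.8 CPM (floxed 8, 18 and 19). The groups did not overlap in Ppp1r15b, whose log2 fold change was 1.07 (SE 0.25, edgeR adjusted p = 0.110). Without floxed 8, 3 genes of the list were higher and 0 lower, Ppp1r15b (1.37, edgeR adjusted p = 0.00155), Eif2s2 and Eif2b2.

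Among 8 genes of bZIP factors that pair with or act beside ATF4, 0 passed with all libraries and 4 had positive values. Cebpb, a C/EBP factor that binds CARE sites with ATF4, stood at 40.0, 43.3 and 49.7 CPM (knockout 11, 12 and 13), against 36.0, 13.4 and 11.4 CPM (floxed 8, 18 and 19). As in Ppp1r15a, floxed 8 lay just under the knockout range (log2 fold change 1.14, edgeR adjusted p = 0.301). Cebpa had 9.19 ± 2.16 CPM across knockout and 4.15 ± 2.49 CPM across floxed islets (SD, n = 3 each; log2 fold change 1.16, edgeR adjusted p = 0.224). Jdp2 and Nfe2l2 had log2 fold changes of 0.46 and 0.13 (edgeR adjusted p = 0.544 and 0.603). Without floxed 8 Cebpb and Cebpa had values of 1.83 and 1.72 (edgeR adjusted p = 6.25e-06 and 0.00549), and 0 of the list were called lower.

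ATF4 targets in amino acid supply, which make serine, proline and one-carbon units, import amino acids or charge transfer RNAs, had no common direction. Of 27 listed genes 24 were measured here, and 0 passed with all libraries, 11 with positive and 13 with negative values and a median log2 fold change of -0.0124. Slc6a9, a glycine transporter gene, stood at 23.7 ± 2.15 CPM across knockout and 9.05 ± 4.25 CPM across floxed islets (SD, n = 3 each; log2 fold change 1.40, edgeR adjusted p = 0.125). Phgdh, the first enzyme of serine synthesis, had 44.8 ± 7.84 CPM across knockout and 25.9 ± 6.51 CPM across floxed islets (log2 fold change 0.80, edgeR adjusted p = 0.103). The neutral amino acid carriers Slc1a5 and Slc38a2 had log2 fold changes of 0.82 and 0.69 (edgeR adjusted p = 0.0851 and 0.180). Without floxed 8, 7 of the 24 were higher and 1, the proline enzyme gene Pycr1, lower, with a median of 0.19.

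The other known ATF4 and CHOP targets had values closer to those of the members. Of 14 listed, 12 were measured here, and 0 passed with all libraries, 11 with positive values and a median log2 fold change of 0.48. Herpud1, an ER-associated degradation gene that both ATF4 and ATF6 induce, stood at 652, 745 and 1059 CPM (knockout 11, 12 and 13), against 547, 208 and 243 CPM (floxed 8, 18 and 19). Its groups did not overlap (log2 fold change 1.30, edgeR adjusted p = 0.174). Bbc3, the gene of the death protein PUMA, had 19.4 ± 3.17 CPM across knockout and 8.63 ± 5.27 CPM across floxed islets (SD, n = 3 each; log2 fold change 1.18, edgeR adjusted p = 0.220). The stress hormone gene Gdf15 was low and uneven, at 3.77, 7.87 and 1.45 CPM (knockout 11, 12 and 13), against 1.16, 0.144 and 0.814 CPM (floxed 8, 18 and 19). Bcl2l11, the gene of the death protein BIM, had a value of 0.38 on the log2 scale (edgeR adjusted p = 0.241). Without floxed 8, 8 of the 12 were higher and 1, Ero1a, lower, with a median of 0.91, and Herpud1 and Bbc3 were among those called higher (1.85 and 1.79, edgeR adjusted p = 0.00152 and 7.42e-05).

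Close relatives of the members gave 0 calls with all libraries in 7 measured genes of 8 listed. Trib1, a relative of Trib3, stood at 135, 155 and 151 CPM (knockout 11, 12 and 13), against 92.8, 46.3 and 41.7 CPM (floxed 8, 18 and 19), a log2 fold change of 1.29 at an edgeR adjusted p of 0.126. The sestrin genes Sesn1 and Sesn3 had log2 fold changes of 0.50 and 0.42, and Atf7 one of 0.0961 (edgeR adjusted p = 0.191, 0.132 and 0.676). Without floxed 8, Trib1 and Sesn1 were called higher (1.73 and 0.69, edgeR adjusted p = 2.41e-06 and 0.0101) and 0 lower.

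ER chaperones and degradation genes of the ATF6 and XBP1 branches, the other arms of the unfolded protein response, were mixed. Of 16 genes 0 passed with all libraries, 7 had positive and 9 negative values, and the median log2 fold change was -0.0882. Hspa5, the gene of the chaperone BiP, which ATF4 can also induce, stood at 3130, 3213 and 3883 CPM (knockout 11, 12 and 13), against 2256, 1228 and 1283 CPM (floxed 8, 18 and 19). Its groups did not overlap (log2 fold change 1.10, edgeR adjusted p = 0.103). Pdia6, a disulfide isomerase gene, had 240 ± 21.0 CPM across knockout and 341 ± 47.4 CPM across floxed islets (SD, n = 3 each; log2 fold change -0.51, edgeR adjusted p = 0.111). Sel1l and Sdf2l1 had values of 0.56 and -0.29 (edgeR adjusted p = 0.247 and 0.343). Without floxed 8, Hspa5 was called higher at 1.44, and Pdia6, Sdf2l1 and Hyou1 lower at -0.63, -0.45 and -0.58 on the log2 scale (edgeR adjusted p from 4.99e-04 to 0.0137). Xbp1, the mRNA that IRE1α splices, counted over both splice forms, stood at 272 ± 14.3 CPM across knockout and 242 ± 31.0 CPM across floxed islets (SD, n = 3 each; edgeR adjusted p = 0.520).

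**Figure D3:**
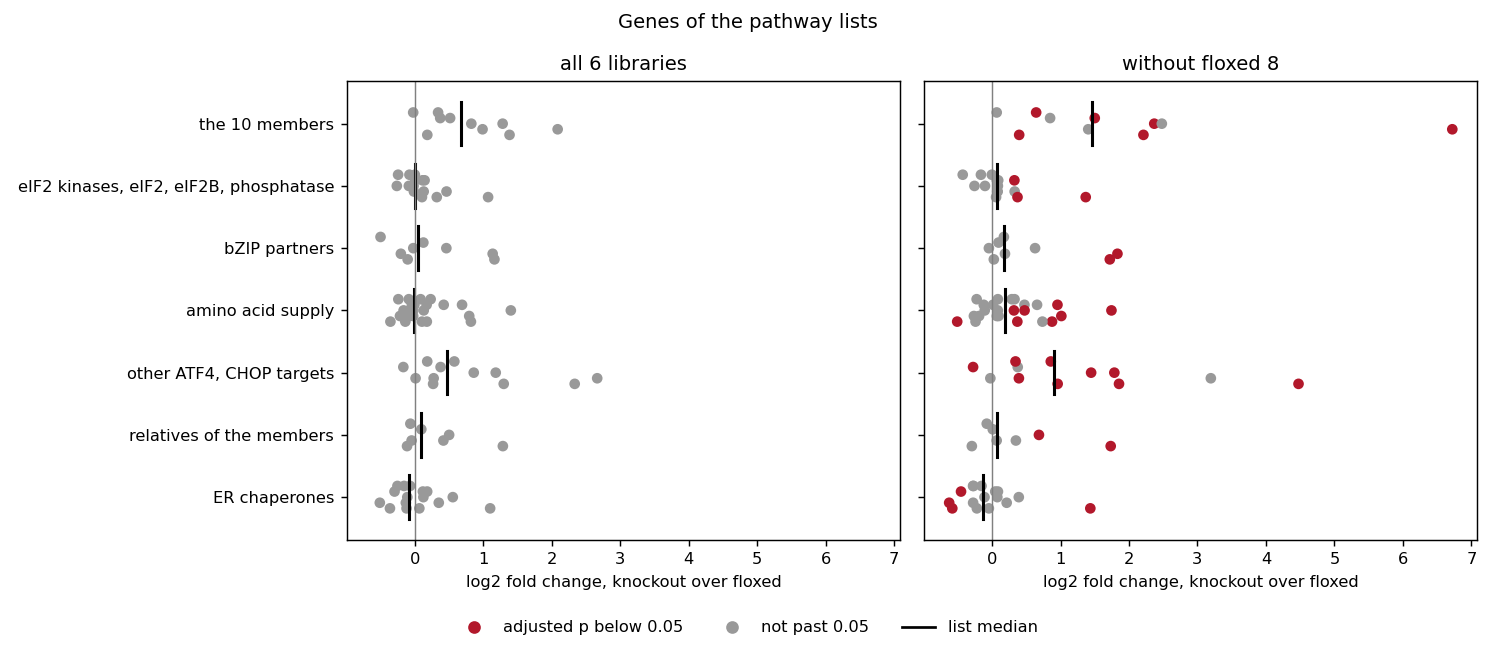
Log2 fold change of every tested gene in the members and in 6 related lists, from all 6 libraries (left) and without floxed 8 (right), with calls at an adjusted p below 0.05 in red and the list median as a bar. With all libraries 0 genes are red, and without floxed 8 the members have 6 red points and the ER chaperones 1 to the right and 3 to the left.

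Immediate early genes and heat shock genes, which also respond to the handling of tissue, varied over the libraries with the members. All 13 immediate early genes had positive values with all libraries (median log2 fold change 1.53, 0 called), and their summed level was 11025 to 12386 CPM in the knockout libraries, against 8211, 1398 and 1438 CPM (floxed 8, 18 and 19). Among them Ier3, Jun, Btg2 and Nr4a1 had log2 fold changes of 1.27, 1.88, 1.31 and 1.69 (edgeR adjusted p from 0.207 to 0.287). The 8 heat shock genes had positive values too (median 1.76, 0 called), with summed levels of 11675 to 13839 CPM in the knockout libraries, against 9109, 2066 and 2262 CPM (floxed 8, 18 and 19). Their smallest p-values belonged to Hspa8, Dnaja1, Hsph1 and Hspb1, with values of 0.97, 0.87, 1.72 and 1.57 (edgeR adjusted p from 0.208 to 0.281). Without floxed 8, 12 of 13 and 8 of 8 were called higher. With the mean level of the immediate early genes as a covariate, 8 of the 10 members had negative values and 0 were called (0.957% of all tested genes were). This covariate (mean log2 CPM) was 8.47 to 8.68 in the knockout libraries, against 8.11, 5.50 and 5.67 (floxed 8, 18 and 19). The groups did not overlap in it, so that fit cannot separate it from genotype. The part of the immediate early and heat shock genes in the members' values was not tested.

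Exocrine content moved with the groups as well. The 20 acinar markers had positive values in 20 of 20 (median log2 fold change 1.49, 0 called, 0 genes at 0 in any library), and their summed level was 109303 to 143240 CPM in the knockout libraries, against 68615, 21706 and 44688 CPM (floxed 8, 18 and 19). In the fit without floxed 8 that called 6 members, 16 of the 20 acinar markers were called higher, with a median of 1.89. With all 6 libraries Pnliprp1, a pancreatic lipase family gene, the acinar factor genes Rbpjl and Ptf1a, and Cpb1 had the smallest p-values. Their log2 fold changes in that fit were 2.00, 2.30, 2.70 and 1.51 (edgeR adjusted p from 0.0695 to 0.0982). In the acinar sum floxed 8 lay between the other floxed libraries and the knockout libraries. In the members it lay above the knockout range in 3, inside it in 3 and below it in 4. Nupr1 rose from floxed 18 over floxed 19 and floxed 8 to the knockout libraries, the same order as the acinar sum. With the mean acinar level as a covariate all 10 members had negative values and 0 were called (0% of all tested genes were). This covariate (mean log2 CPM) was 10.88 to 11.23 in the knockout libraries and 8.57 to 10.17 in the floxed libraries. The groups did not overlap in it, so that fit cannot separate acinar level from genotype. Ductal markers had a summed level of 506 to 559.9 CPM in knockout and 394 to 454 CPM in floxed islets, 6 measured of 8 listed, with 5 positive and 0 called, and 3 called higher without floxed 8. Krt19, Krt18, Muc1 and Spp1 led that list (1.88, 0.54, 1.87 and 0.83, edgeR adjusted p from 0.0683 to 0.265). The part of exocrine RNA in the members' values was not tested.

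The islet label itself held in every library: Ins1, Ins2 and the other 9 beta cell markers summed to 297416 to 428961 CPM in knockout and 418443 to 458791 CPM in floxed islets. Of the beta cell markers 2 had positive values and 0 were called, with Ucn3, G6pc2 and Nkx6-1 at log2 fold changes of -0.24, -0.29 and 0.13. The 5 alpha cell markers, Gcg and Irx2 among them, had negative values and 0 calls, and floxed 8 had the highest sum, 33650 CPM, against 17338 to 21325 CPM in knockout libraries. Their sign turned without floxed 8, where 4 of the 5 had positive values (median 0.15, against -0.18 with it) and 0 were called. The 14 measured endothelial markers of 15 had negative values and 0 calls, led by Sox18, Esam, Egfl7 and Emcn (-1.17, -0.45, -0.63 and -0.38, edgeR adjusted p from 0.0788 to 0.132), and 10 of them were lower without floxed 8. Macrophage and fibroblast markers were raised in 1 library, with sums of 150 and 229 CPM in knockout 12, against 49.6 to 77.8 and 22.4 to 43.0 CPM in the other 5. Of these lists C1qa, Cd68, Adgre1 and Lyz2 had log2 fold changes of -0.19, 1.09, 0.64 and 1.41, and Lum, Col3a1, Col1a1 and Col1a2 had 2.61, 1.88, 2.25 and 1.31, with 0 called in either list, and 0 of these or of the beta cell markers were called without floxed 8. Knockout 12 was the highest library in Atf3 and in no other member. Leaving out knockout 12 alone gave 0 members called (0.0722% of all tested genes were). Leaving out both knockout 12 and floxed 8 gave 4 members called higher (7.38% of all tested genes), Atf4, Atf3, Trib3 and Ppp1r15a. Those 4 calls carry the limit given for the fit without floxed 8.

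**Figure D4:**
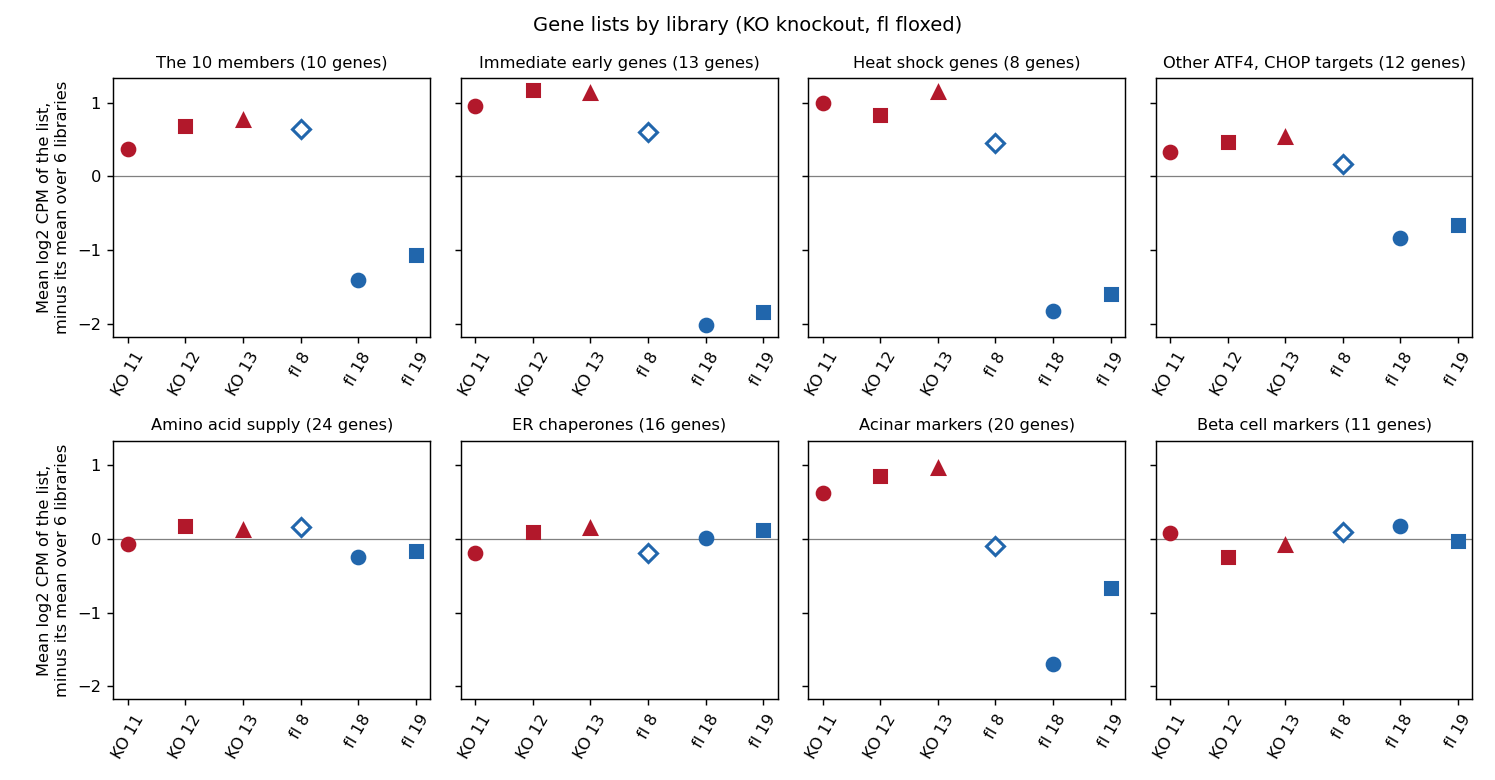
Mean log2 CPM of 8 gene lists in each library, after subtracting the list's mean over the 6 libraries, with knockout libraries on the left of each panel. For the members, the immediate early and the heat shock genes floxed 8 lies nearer to the knockout libraries than to the other floxed libraries, and floxed 18 and 19 lie more than 1 below the mean, while the mean log2 CPM of the beta cell markers stays between 10.1 and 10.5.

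The genes whose profile over the 6 libraries was nearest to that of the 2 widest-ranging members were looked up among genes with a mean of at least 1 CPM, by the root mean square difference of centred log2 CPM. For Atf3 they were Cxcl2 (0.871), Egr4 (0.956) and Egr2 (0.979), a chemokine gene and early growth response genes. For Chac1 they included DXBay18 (0.378) and Ciart (0.398), a circadian repressor gene.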

How the data were processed

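RNA-seq values per gene were used, from islets of 6 mice. Per the labels' protocols, RNA was extracted with TRIzol and sequenced as paired reads of 150 bases. The tools listed per the submitters' processing notes are StringTie, HISAT2 and fastp, and the build is mm10. The sources used here do not give versions, the counting rule or strand use. The values deposited by the authors are estimated counts without normalization. Of the 11106 genes 11090 matched a RefSeq table of GRCm38.p6 by Entrez identifier, as did all 10 members, and 0 value columns were unused.

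Counts were rounded, filtered with filterByExpr (minimum count 10, minimum total 15), scaled by TMM and tested with edgeR 4.0.16 in R 4.3.3 (quasi-likelihood, robust, no covariate). P-values were adjusted over all 11080 tested genes by Benjamini-Hochberg with a threshold of 0.05. Standard errors come from the F statistic and intervals are at 95%. Alternatives used RLE scaling, library totals, other filters, DESeq2 1.42.0, limma-voom (3.58.1), covariates and left-out libraries. No 2 libraries of a group were copies of each other, with a chi-square of 20.2 or more per gene, so each counted as 1 sample. The labels number separate mice, and no batch is given, so a batch and the group cannot be told apart.

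The members, the related lists and the tests were chosen with earlier results of these data known. The text names all members, Ern1, Xbp1, up to 4 genes of each list with the smallest unadjusted p and, for the members Atf3 and Chac1, the 3 genes nearest in profile, except a few genes that are not reported here. Further genes (Eif2s2, Eif2b2, Pycr1, Hyou1, Ero1a among the other ATF4 targets, Ins1 and Ins2) were named after their values were seen.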

Additional observations from a re-analysis of the deposited data

How the results depend on the processing

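With all 6 libraries 0 members passed under RLE scaling, library totals, scaling without acinar and insulin genes, both other filters, DESeq2, limma-voom, edgeR without robust dispersion and both covariates. Limma-voom with quality weights called 7 members, and the fit without both knockout 12 and floxed 8 called 4. Both counts carry the limit given for the fit without floxed 8. With single libraries left out the number called ran from 0 to 6, with 6 without floxed 8. The median log2 fold change of the members was -0.47 with the acinar covariate and -0.27 with the immediate early covariate, and from 0.33 to 1.45 with single libraries left out. Among all tested genes the 45 called became 564 with DESeq2, 1671 with quality weights, 0 with the acinar covariate, 106 with the immediate early covariate, 1393 without both knockout 12 and floxed 8, and 0 to 1584 with single libraries left out.

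With the acinar covariate the log2 fold changes of Atf4, Ddit3, Atf3, Trib3 and Chac1 were -0.43, -0.34, -2.32, -1.97 and -2.11, and those of Asns, Ddit4, Ppp1r15a and Nupr1 were -0.35, -0.30, -0.50 and -0.68. With the immediate early covariate those of Atf4, Atf3, Trib3, Chac1, Asns, Ddit4 and Ppp1r15a were -0.30, -0.67, -1.23, -1.09, -0.30, -0.13 and -0.17, and the covariate fits leave 3 residual degrees of freedom. The causes were not tested. Sesn2 was 0.0765 with quality weights and ran from -0.14 to 0.0686 with single libraries left out, and Trib3 from -0.0319 to 1.50. The Trib3 counts, from 25 to 117, limit its precision. No paired analysis was possible because the groups share no animal numbers.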

Other observations

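Several members also answer to other signals, and the lists for those signals differed. The p53 targets, a signal that also induces Sesn2, had positive values in 6 of 7 genes (median log2 fold change 1.01, 0 called with all libraries). Trp53inp1, which links p53 to autophagy and cell death, stood at 50.5, 81.2 and 71.8 CPM (knockout 11, 12 and 13), against 37.2, 13.3 and 15.5 CPM (floxed 8, 18 and 19). Its groups did not overlap (log2 fold change 1.63, edgeR adjusted p = 0.171). Plk2, Mdm2 and Phlda3 had values of 1.25, 0.26 and 1.01 (edgeR adjusted p from 0.172 to 0.252). Without floxed 8, 3 of the 7 were called higher.

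Hypoxia and glucocorticoids both induce Ddit4. Of the 6 measured hypoxia targets 3 had positive values and 0 were called (median 0.0355), with Ndrg1, Pdk1, Ero1a and Vegfa at 0.18, 0.21, -0.17 and 0.20. Without floxed 8, 0 were called higher and 1, Ero1a, lower. Of the 4 measured glucocorticoid targets 3 had positive values and 0 were called (median 0.91). Sgk1, a kinase gene among them, stood at 89.1, 103 and 103 CPM (knockout 11, 12 and 13), against 46.2, 21.8 and 29.3 CPM (floxed 8, 18 and 19), a log2 fold change of 1.60 at an edgeR adjusted p of 0.0683. Sgk1 differed from most members in that floxed 8 lay nearer to the other floxed libraries than to the knockout libraries. Per1, Tsc22d3 and Fkbp5 had values of 1.19, 0.62 and -0.17, and without floxed 8, 3 of the 4 were called higher and 0 lower.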
